A study of Mus musculus with 367 samples.

Results

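Fibroblasts that laid down collagen in late mouse skin wounds were compared by their measured Tagln mRNA. Matrix cells were those of post-wounding day 15 and day 21 (PWD15 and PWD21) with Col1a1 at 1000 FPKM or more, Rgs5 under 100 FPKM, Tyrobp under 50 FPKM, at most 15% of summed FPKM on mitochondrial genes and at least 2000 genes above 0. FPKM is fragments per kilobase of transcript per 1000000 mapped fragments. Of 367 cells in the series, 208 came from these days and 126 of them passed as matrix cells. Cells with Tagln had 100 FPKM or more (47 cells), cells without Tagln were listed at 0 (56 cells), and 23 cells lay between. The 103 cells of the first and last classes are described here.

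All cells came from Sm22-Cre;tdTomato mice, in which a Tagln (Sm22) promoter drives Cre and thereby switches on a lasting red reporter. Excisional wounds of 1.5 x 1.5 cm were made on the back of mice aged, per the labels, 3 to 8 weeks, and the wounds of 2 to 3 animals were pooled per time point. Viable tdTomato-high cells were sorted, captured singly on C1 chips for cells of 17 to 25 µm and sequenced along the full transcript, with 2 captures at PWD15, 2 at PWD21 and 3 at PWD12. No untreated or uninjured control was part of this experiment, and every cell of either class carried the lineage label, which records past activity of the promoter and not present Tagln mRNA. The sources do not say whether captures of a day came from different mice, so p-values measure the spread between captures, which may be technical.

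Tagln encodes transgelin, an actin-binding protein of smooth muscle and of contractile fibroblasts. In healing skin, fibroblasts that take up contractile proteins such as smooth muscle actin (Acta2) and the regulatory myosin light chain (Myl9) are called myofibroblasts. They pull the wound edges together and deposit matrix. Many of their actin and myosin genes are regulated by serum response factor (Srf) through a promoter element called the CArG box.

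The sequences before RefSeq starts of 3 contractile genes on which the comparison turns are shown, with CArG boxes in capitals. The sequences are RefSeq's, from GRCm38.p6, and run 5′ to 3′ over the 250 bases before a transcript start that RefSeq's table lists. These starts are not the outermost ones of the genes, so by the gene spans given further on the Myl6 window lies within the gene, as do most of the Acta2 window and the end of the Myl9 window. Myl6 has 2 listed starts, and the window before the one with a box is shown. A box was taken as the 10-base CArG element with at most 1 G or C among its 6 central bases. The element reads as a CArG box on both strands, and overlapping boxes were allowed.
Myl9, chr2:156775214-156775463, plus strand: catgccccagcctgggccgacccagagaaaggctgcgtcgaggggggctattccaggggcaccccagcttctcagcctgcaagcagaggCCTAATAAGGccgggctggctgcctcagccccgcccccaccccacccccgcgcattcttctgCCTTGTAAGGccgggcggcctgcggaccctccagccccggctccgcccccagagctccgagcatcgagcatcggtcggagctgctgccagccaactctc
Acta2, chr19:34255374-34255623, minus strand: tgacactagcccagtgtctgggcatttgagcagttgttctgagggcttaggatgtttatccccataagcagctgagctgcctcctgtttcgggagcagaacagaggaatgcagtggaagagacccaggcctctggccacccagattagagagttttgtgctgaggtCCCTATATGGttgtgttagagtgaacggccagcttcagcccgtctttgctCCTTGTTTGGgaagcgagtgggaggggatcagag
Myl6, chr10:128493010-128493259, minus strand: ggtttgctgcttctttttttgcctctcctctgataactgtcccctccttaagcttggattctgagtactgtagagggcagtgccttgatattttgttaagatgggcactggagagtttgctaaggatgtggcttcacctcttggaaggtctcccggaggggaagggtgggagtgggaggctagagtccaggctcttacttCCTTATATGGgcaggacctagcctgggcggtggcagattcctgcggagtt
Myl9 held CCTAATAAGG, whose 6 central bases are all A or T, and CCTTGTAAGG, with 1 G in the centre. Acta2 held CCCTATATGG and CCTTGTTTGG, each with 1 G or C in the centre, and Myl6 held CCTTATATGG with none. Boxes with only A or T in the centre were found in 1.47% of the 32851 windows of the same length and boxes with at most 1 G or C in 8.59%, or in 1.62% and 9.78% of the 27025 genes. Of the 21 listed contractile genes 18 matched the table, and Tagln was not among them. Of the 18, 3 held the first kind (16.7%) and 4 held either kind (22.2%). These 4 were the 3 genes shown and Cnn2, which held the first kind. A match describes the letters only.

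Tagln itself (chr9:45929619-45936058, minus strand, GRCm38) chose the classes and is given without a test. Among cells with Tagln it ranged from 104 to 2115 FPKM with a median of 288 FPKM. Class means were 590 FPKM in PWD15 capture 1, 577 in PWD15 capture 2, 246 in PWD21 capture 1 and 447 in PWD21 capture 2. The cells just inside the limit held 104 and 105 FPKM, and those just outside it 94.5 and 89.5 FPKM. The lowest values above 0 were 0.43 and 1.14 FPKM. A fragment count estimated from the steps between FPKM values put 3 Tagln fragments, the limit that a count of 0 allows, at 1.61 to 13.5 FPKM in 55 cells without Tagln, and under 10 FPKM in 52 of them. This covers counting error of sequenced fragments only and not the loss of transcripts before sequencing. Measured Tagln in these cells lay below the other class, and low levels in them were not detectable.

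Cells with Tagln made up 32% and 27.3% of matrix cells in the PWD15 captures and 33.3% and 52.8% in the PWD21 captures. Cells without it made up 48% and 45.5% at PWD15 and 38.9% and 41.7% at PWD21. By the same limits, the 3 PWD12 captures held 56.25%, 66.7% and 36.8% of cells with Tagln and 18.75%, 22.2% and 26.3% without. The shares of cells with Tagln overlapped between the late captures and PWD12, while those of cells without Tagln were higher in all 4 late captures. These shares follow from the rule and were not tested.

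**Figure D1:**
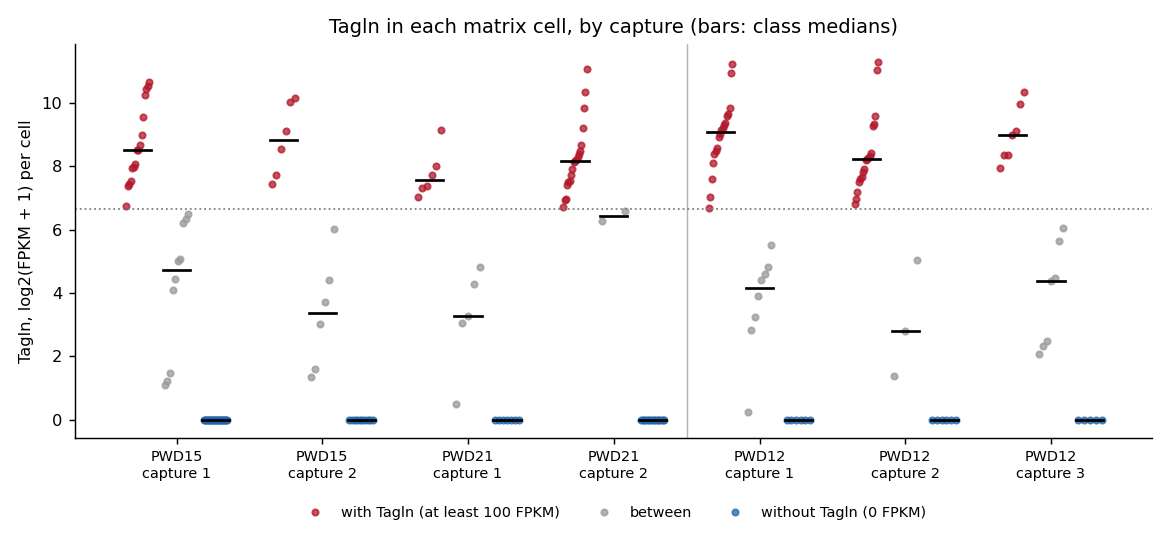
Tagln per matrix cell on a log2(FPKM + 1) scale in the 4 late captures (left of the line) and the 3 PWD12 captures. Points are cells, bars are class medians and the dotted line is the limit of 100 FPKM. Cells with Tagln reach 2115 FPKM in the late captures, and cells without it lie at 0.

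Both classes held the markers of matrix fibroblasts. Col1a1, which the rule used, had class means of 6705 to 13797 FPKM with Tagln and 7364 to 14598 FPKM without. Col1a2 and Col3a1, chains of the fibrillar collagens, and the proteoglycan genes Dcn and Lum were above 0 in 47 of 47 cells with Tagln and 56 of 56 without. Pdgfra, a receptor of dermal fibroblasts, was detected in 40 of 47 and 50 of 56 cells. Of the smooth muscle genes, Cnn1 (calponin) was at 0 in all cells of both classes, and Myh11 and Des averaged at most 1.24 FPKM.

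RNAs of other cell types were low beside the collagens in both classes. The summed FPKM of 12 pericyte and vascular smooth muscle markers, Rgs5 not among them, ranged over the 4 late captures from 27.7 to 85.1 with Tagln and from 12.2 to 254 without. For 12 myeloid markers the ranges were 0 to 16.45 and 0.034 to 105.7, with Ptprc and C1qa at 0 in both classes. For 9 endothelial markers they were 0.292 to 3.496 and 0.0371 to 16.3, with Kdr and Emcn at 0. For 8 keratinocyte markers they were 0 to 23.3 and 2.73 to 7.11, with Krt5 and Krt14 at 0. For 10 hair follicle dermal papilla and sheath markers they were 16.4 to 42.7 and 9.20 to 33.96. In this order of lists, 1, 4, 4, 6 and 2 genes were at 0 in all cells with Tagln and 0, 4, 5, 5 and 2 in all cells without. Of the pericyte and of the myeloid markers 4 each were tested, and all 8 had negative differences, with medians of -0.59 and -0.58 and none at an unadjusted p under 0.05. By capture the medians were -1.94, 0, -2.30 and 0.40 for the pericyte markers and -2.93, 0, -3.65 and 0.57 for the myeloid markers. The negative medians thus came from PWD15 capture 1 and PWD21 capture 1, and PWD21 capture 2 had the opposite sign. A gene could reach the average of 1 FPKM needed for the test through 1 class alone. The lowest of the 8 differences was that of the complement gene C1qb, at -2.47 ± 1.18 (SE). C1qb was above 0 in 3 of 47 cells with Tagln and 3 of 56 without. The ranges overlapped for each of the 5 lists, and the part of these RNAs in the differences by Tagln was not tested.

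Depth overlapped between the classes. Median fragments per cell were 990029 with and 915740 without Tagln in PWD15 capture 1, 810762 and 1089840 in PWD15 capture 2, 2199380 and 2138230 in PWD21 capture 1, and 2112720 and 2435660 in PWD21 capture 2. The number of genes above 0 was higher with Tagln in 3 of 4 captures, by 293 ± 476 genes (SD, n = 4; two-sided exact permutation test, p = 0.375, where 0.125 is the smallest p that 4 captures allow). Captures pooled animals. In PWD15 capture 1, Y-linked RNA reached 10 FPKM in 3 of 16 cells with Tagln and 1 of 24 without, and Xist in 4 and 11 cells, with no cell holding both. The animals were not identified, and their part in the differences was not tested.

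The first question was which genes differ between matrix cells with and without Tagln once each capture is its own control. Class means per capture were compared on the log2(mean FPKM + 1) scale, which understates the change of low genes, with limma and the capture as a block. None of 12889 genes passed the Benjamini-Hochberg adjusted p of 0.05 (0%), and the lowest adjusted p was 0.876. An unadjusted p under 0.05 was met by 530 genes (4.11%), of which 222 were higher (1.72%) and 308 lower (2.39%) with Tagln. The median difference over all genes was -0.10. Since no gene passed, the values below describe these captures.

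Contractile genes were mostly higher with Tagln. Of 21 genes of the contractile apparatus 16 were tested, 13 had a positive difference, and the list's median difference was 0.48 beside -0.10 for all genes. The median was positive in each capture, at 0.29, 0.47, 0.53 and 0.03. Of the 16 genes 4 were higher in all 4 captures and 1 was lower in all 4, beside 4.39% and 5.54% of all genes tested. An unadjusted p under 0.05 was met by 2 genes (Myl9 and Myl6), both higher, beside 1.72% of all genes in that direction. None was called after adjustment.

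Myl9 (chr2:156775420-156781658, plus strand) encodes the light chain whose phosphorylation starts non-muscle and smooth muscle myosin. Its class means with and without Tagln were 238 and 58.99 FPKM in PWD15 capture 1, 385 and 59.3 in PWD15 capture 2, 159 and 10.8 in PWD21 capture 1, and 159 and 0.0327 in PWD21 capture 2. The lowest class mean with Tagln was above the highest without. The difference was 3.93 ± 0.85 (SE; limma, p = 0.00131, adjusted p = 0.876), and its size rests on PWD21 capture 2, where it was 7.28 against 1.99 to 3.76 in the others. With a pseudocount of 10 it was 2.86, and without PWD21 capture 2 it was 2.81.

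The share of cells with any Myl9 was lowest without Tagln. It was above 0 in 34 of 47 cells with Tagln (72.3%), 15 of 23 cells between (65.2%) and 20 of 56 cells without (35.7%). By capture, it was detected in 10 of 16, 5 of 6, 6 of 6 and 13 of 19 cells with Tagln. Without Tagln it was detected in 12 of 24, 5 of 10, 2 of 7 and 1 of 15 cells. The 2 PWD21 captures thus held the widest gap, but the difference between days did not pass (limma interaction, 3.18, p = 0.05003, adjusted p = 0.929), and none of 12889 genes did (0%; 516 at an unadjusted p under 0.05, 4%, of which 2.29% of all genes were higher and 1.71% lower at PWD21).

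Actb and Myl6 were abundant in both classes and shifted by less. Actb (chr5:142903115-142906754, minus strand), the cytoplasmic beta actin, averaged 4115 against 2690 FPKM in PWD15 capture 1, 16477 against 10290 in PWD15 capture 2, 12083 against 10115 in PWD21 capture 1 and 3285 against 2230 in PWD21 capture 2. It was higher with Tagln in every capture, by 0.53 ± 0.09 (SE; limma, p = 0.000378, adjusted p = 0.876), although the captures differed from each other by more than the classes did. Reads of the near-identical coding regions of Actb and other actin genes may have been shared between them by the quantification.

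Myl6 (chr10:128490860-128494145, minus strand), the essential light chain of non-muscle myosin, averaged 1109 against 785 FPKM, 2506 against 846, 1302 against 746 and 1285 against 1094 in the same order of captures. The values with Tagln were all above those without. The difference was 0.77 ± 0.24 (SE; limma, p = 0.0098, adjusted p = 0.876), and Myl6 was higher in 4 of 4 captures. Without the variance trend the same difference had p = 0.244 (limma). With Tagln at 500 FPKM or more it was 0.62 (limma, p = 0.153).

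Acta2 (chr19:34241090-34255590, minus strand), the classical myofibroblast actin, did not follow Tagln in all captures. It averaged 86.7 FPKM with and 3.10 without Tagln in PWD15 capture 1, 64.4 FPKM and 0 in PWD21 capture 1, and 63.1 and 15.7 FPKM in PWD21 capture 2. In PWD15 capture 2 it was listed at 0 in all 6 cells with Tagln and averaged 28.3 FPKM without, from 1 of 10 cells at 283 FPKM. It was detected in 18 of 47 cells with Tagln (38.3%), 2 of 23 between (8.70%) and 9 of 56 without (16.1%), and only 8, 0 and 2 of these cells reached 100 FPKM. The difference was 1.88 ± 1.57 (SE; limma, p = 0.263, adjusted p = 0.876). Without PWD15 capture 2 it was 4.13 (p = 0.002598, adjusted p = 0.904, where the alternatives ranged from 0.800 to 0.979), without PWD21 capture 1 it was 0.50, and with Tagln at 500 FPKM or more, which leaves 3 captures, it was -1.09.

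**Figure D2:**
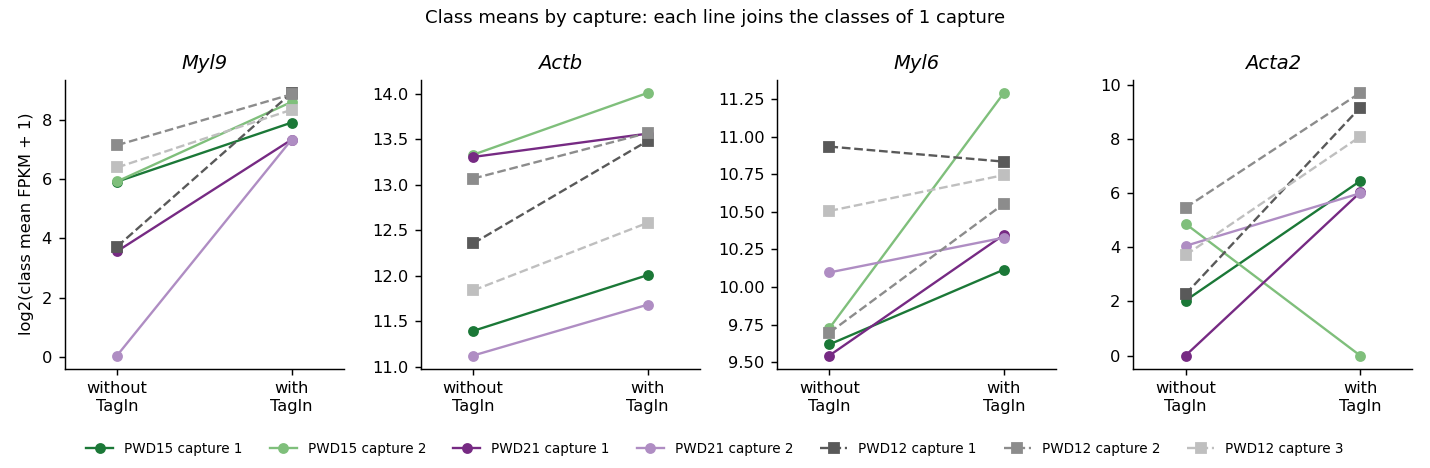
Class means of Myl9, Actb, Myl6 and Acta2 on the log2(mean FPKM + 1) scale, each panel with its own axis that does not start at 0 for Actb and Myl6. Each line joins the class without Tagln to the class with Tagln of 1 capture, solid for PWD15 and PWD21 and dashed for PWD12. Myl9 and Actb are higher with Tagln in all 7 captures, and Acta2 is lower with Tagln only in PWD15 capture 2.

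Few cells held Myl9 and Acta2 together. Both were above 0 in 14 of 47 cells with Tagln and 4 of 56 without, and neither was above 0 in 9 and 31 cells. At PWD12 both were above 0 in 33 of 43 cells with Tagln and 4 of 17 without. The median number of the 21 contractile genes detected per cell was 14, 12, 12.5 and 12 with Tagln in the 4 late captures. Without Tagln it was 11, 10.5, 11 and 11, and the ranges of single cells overlapped. Tagln is itself among the 21 genes, so part of each gap follows from the rule. In PWD21 capture 2 the gap of 12 against 11 is no more than Tagln alone adds.

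The tropomyosins and other filament genes differed by less. Tpm2 and Tpm4, which stabilise actin filaments, were higher with Tagln in 4 of 4 captures, by 0.67 ± 0.40 and 0.56 ± 0.31 (SE). Tpm1 had 0.91 ± 0.62 and was higher in 2 captures. Actg2, the enteric smooth muscle actin, was above 0 in 6 of 47 cells with Tagln and was listed at 0 in all 56 cells without it, so no fold is given. Its coding region is close to that of Acta2, and the split of reads between them is uncertain. Smtn (smoothelin) was lower with Tagln in 4 of 4 captures, at -1.57 ± 0.77, and the actin- and tropomyosin-binding gene Cald1 had a difference of 0.0012 ± 0.31. Csrp2, Cnn2, Mylk and Csrp1 had differences of 0.37 to 0.51 and were higher in 2 of 4 captures each, while Cnn3 (0.10), Myh9 (-0.14) and Myh10 (-0.31) lay near the median of all genes. None of these genes had an unadjusted p under 0.05.

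**Figure D3:**
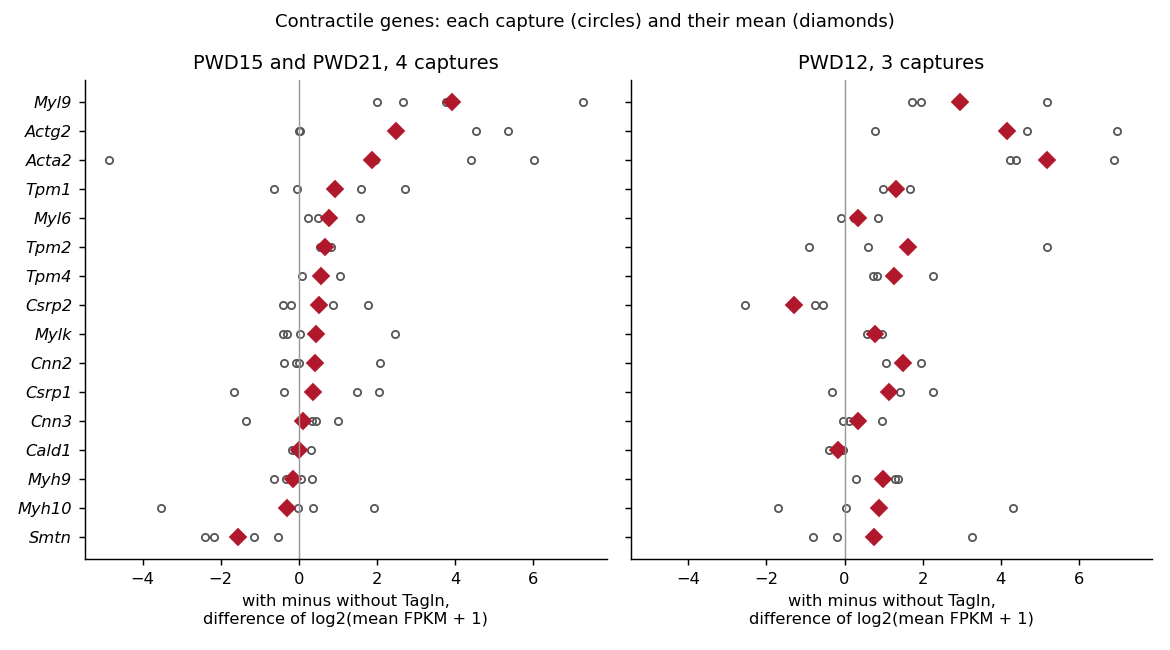
Difference between cells with and without Tagln of the 16 contractile genes tested, on the log2(mean FPKM + 1) scale, for the 4 late captures (left) and the 3 PWD12 captures (right). Circles are captures and diamonds their mean, with genes ordered by the late mean. Myl9 lies above 0 in all 7 captures, and Acta2 lies on both sides of 0 in the late captures and above 0 in the 3 PWD12 captures.

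Of 18 genes of actin cross-linking and focal adhesion 10 had a positive difference, and the median difference was 0.15. In all 4 captures 4 of them were higher, beside 4.39% of all genes tested. Flna (filamin A, an actin cross-linker) averaged 378 against 223 FPKM, 164 against 59.5, 161 against 58.9 and 112 against 32.7, a difference of 1.35 ± 0.42 (SE; limma, p = 0.0109, adjusted p = 0.876). Fermt2 (kindlin-2, an integrin activator) had 1.02 ± 0.51, Zyx (zyxin) 1.86 ± 1.02 and Tns1 (tensin) -1.35 ± 0.89.

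Of 13 cofactors and targets of Srf and of the mechanosensitive cofactor Yap1 10 were tested, with a median difference of 0.58. Of these 2 were higher at an unadjusted p under 0.05, beside 1.72% of all genes tested. The list's median was 0.56, 0.10, 1.55 and -0.36 in the 4 captures, so PWD21 capture 2 had the opposite sign. Amotl2, a Yap1 target and partner, averaged 14.1 against 5.32 FPKM, 53.6 against 1.57, 26.9 against 0.277 and 28.3 against 0.482. It was higher with Tagln in 4 of 4 captures, by 3.605 ± 0.90 (SE; limma, p = 0.0032, adjusted p = 0.876). With at least 500000 estimated fragments per cell it was 2.69 (limma, p = 0.0253), and with at least 4000 genes it was 3.62. Only the first of these limits leaves out a PWD15 capture 2 cell with Tagln that held 479015 fragments and 4062 genes. Thbs1 (thrombospondin 1, a matricellular protein) had 2.07 ± 0.88, Srf itself 1.93 ± 0.95 with 3 of 4 captures higher, and Ccn1, another matricellular target, 0.62 ± 0.50. Srf was detected in 24 of 47 cells with Tagln and 16 of 56 without.

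The matrix programme was close to the median of all genes. Of 17 collagens none had an unadjusted p under 0.05, and their median difference was 0.09. Col12a1, a fibril-associated collagen, had 0.61 ± 0.28 and was higher in 4 of 4 captures, and Col16a1 had 0.89 ± 0.51. The 24 matrix glycoprotein and crosslinking genes tested had a median of 0.12. Among them Eln (elastin) was lower with Tagln in all 4 captures, at 5.95 against 13.3 FPKM, 0 against 14.8, 0.445 against 15.8 and 29.7 against 75.2 (limma, unadjusted p = 0.0202, adjusted p = 0.876), and Cilp had 1.05 ± 0.55.

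The medians of 3 other lists also lay near that of all genes. They were -0.0042 for 9 small leucine-rich proteoglycans, in which Fmod (fibromodulin) had -2.24 ± 1.08 and Prelp -1.43 ± 0.80. They were -0.07 for 11 matrix metalloproteinases and inhibitors, with Mmp16 at -1.89 ± 0.94 and Timp3 at 0.91 ± 0.77, and -0.06 for 17 genes of the TGF-beta pathway, with the latent-TGF-beta-binding Ltbp2 at -1.45 ± 0.88 and the ligand Tgfb2 at 1.21 ± 0.93. For 11 integrin subunits, the adhesion receptors of the matrix, the median was higher, at 0.37, with 8 positive. Of the 11 subunits 2 were higher in all 4 captures, beside 4.39% of all genes tested. Itgb5 had 1.11 ± 0.57 and Itga4 -1.25 ± 0.94. No gene of these 3 lists or of the integrins had an unadjusted p under 0.05.

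Of 19 dermal fibroblast subset markers, with a median of -0.30, 4 were lower with Tagln in all 4 captures and 1 was higher. Over all genes tested these shares were 5.54% and 4.39%. Twist1, a mesenchymal transcription factor, had -1.28 ± 0.62 and Ptn (pleiotrophin) -1.09 ± 0.53. Among 13 acute-phase and chemokine genes, with a median of -0.03, the monocyte chemokine Ccl7 was higher with Tagln in 4 of 4 captures, at 265 against 68.1 FPKM, 363 against 196, 810 against 529 and 658 against 239 (1.22 ± 0.33; limma, p = 0.0050, adjusted p = 0.876). In PWD21 capture 1 the mean with Tagln came from 1 of 6 cells, against 5 of 7 without. The cytokine Il6 had 2.14 ± 1.08. Of the rest, 11 genes around Wnt signalling had a median of -0.34, 5 adipogenic genes 0.30 and 17 immediate early genes 0.04.

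**Figure D4:**
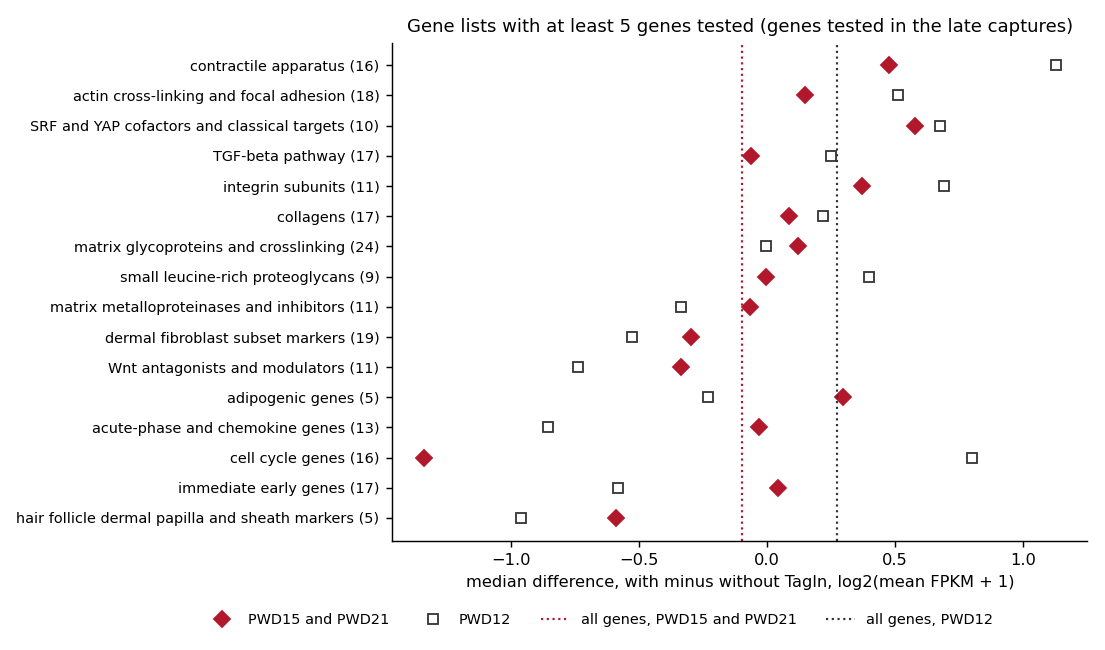
Median difference between cells with and without Tagln for each gene list with at least 5 genes tested in the late captures, on the log2(mean FPKM + 1) scale. Filled diamonds are the 4 late captures, open squares the 3 PWD12 captures, and dotted lines the medians of all genes tested (-0.10 and 0.27). The contractile list lies at 0.48 and 1.13, and the cell cycle list at -1.34 in the late captures and 0.80 at PWD12.

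Cell cycle genes were lower in the class means with Tagln. The median difference of 16 genes was -1.34, with medians of -1.67, -2.41, -3.43 and 0.09 in the 4 captures, so PWD21 capture 2 did not share the sign. Of the 16 genes 2 were lower in all 4 captures, beside 5.54% of all genes tested. An unadjusted p under 0.05 was met by 5 of the 16, all lower, beside 2.39% of all genes in that direction. Birc5 (survivin) averaged 16.497 against 71.6 FPKM, 0.182 against 55.2, 0.122 against 120 and 0.08 against 0.755 (limma, p = 0.0093, adjusted p = 0.876). The mitotic kinase gene Cdk1 and the cyclin gene Ccnb1 had differences of -3.73 ± 1.14 and -3.10 ± 1.12, and Ccnb2 was listed at 0 in all 47 cells with Tagln and above 0 in 9 of 56 without. At PWD12 the list's median was 0.80, beside 0.27 for all genes, and 14 of 16 genes were positive. By capture the PWD12 medians were 3.23, -0.31 and -0.81, so only PWD12 capture 1 was positive.

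These means came from few cells. In PWD15 capture 1, Cdk1 averaged 139 FPKM over the 24 cells without Tagln, of which 3 were above 0, and the highest held 2732 FPKM. The most cell cycle genes detected in 1 cell without Tagln were 13, 15, 14 and 6 of 16 in the 4 late captures, and 11, 3, 8 and 6 with Tagln. The class medians were 3, 4, 6 and 2 genes without and 5, 2.5, 5.5 and 4 with Tagln. By this count the typical cell without Tagln therefore held no more of these genes in PWD15 capture 1 and PWD21 capture 2. In these captures cells without Tagln also had fewer genes of any kind above 0, with medians of 5113.5 against 5983 and 5318 against 5746. The part of this in the cell cycle count was not tested.

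**Figure D5:**
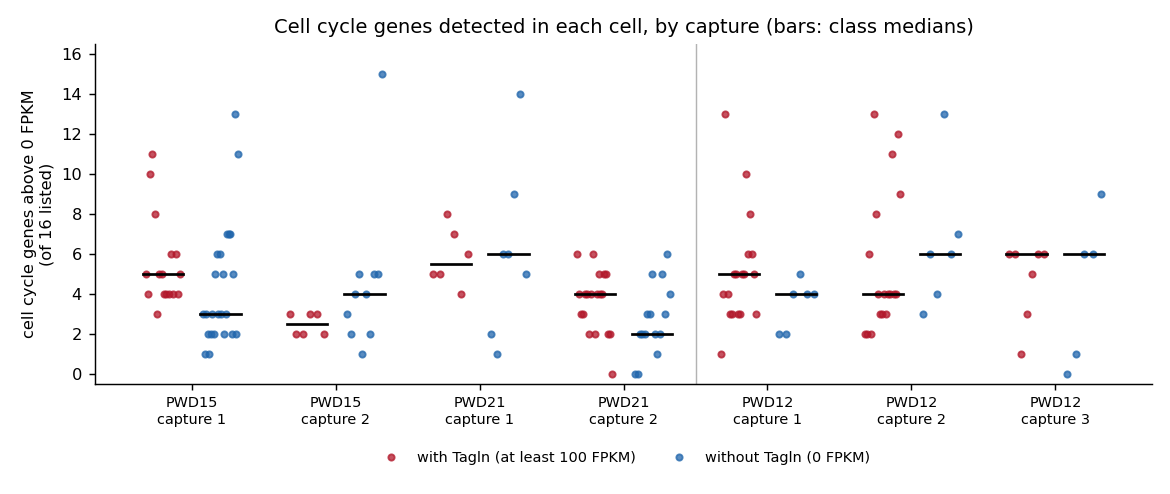
Number of 16 listed cell cycle genes above 0 FPKM in each cell, by capture and class, with the 4 late captures to the left of the line. Points are cells and bars class medians. Single cells without Tagln reach 13, 15 and 14 genes in 3 late captures, above all cells with Tagln there.

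The genes with the smallest p among those with the same sign in all 4 captures were, besides Myl9, Actb and Amotl2, mostly detected in few cells. On the higher side they were 4930509H03Rik, Dgat1, Mrps18b, Csnk1g2, 8430429K09Rik, Pspc1 and Mapkbp1. Dgat1, an enzyme of triglyceride synthesis, was above 0 in 6 of 47 cells with Tagln and 2 of 56 without, and Mapkbp1 in 15 of 47 and 0 of 56. On the lower side they were Emc8, Igsf8, Lrrk1, Btbd2, B3galnt2, Nup107, Kpna2, Ctnnbip1, H2afx and Hist1h1e. Hist1h1e belongs to a family of near-identical histone genes, and its counts are uncertain. These 20 genes, Myl9, Actb and Amotl2 among them, were picked by their p-values, so the p-values given for those 3 describe the choice and are no support for it. The same holds for the named members of lists other than the contractile one, such as Flna, Eln, Ccl7 and Birc5. They were picked by smallest p within their list.

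The same comparison at PWD12, in 3 captures that did not enter the rule, held 43 cells with and 17 without Tagln. Of 12670 genes 1 was called (0.00789%), and 656 had an unadjusted p under 0.05 (5.18%), of which 477 were higher (3.76%) and 179 lower (1.41%). The called gene was Gm37376, at -0.56 (limma, adjusted p = 0.0400). Gm37376 was named after its value was seen, and it was not called under most other settings. The median difference over all genes was 0.27. The contractile list had a median of 1.13 over 19 genes tested, with 7 higher and 1 lower at an unadjusted p under 0.05, and 10 higher and 2 lower in all 3 captures beside 16.2% and 6.95% of all genes.

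At PWD12 Acta2 followed Tagln in every capture. It averaged 575 FPKM with and 3.83 without Tagln in capture 1, 841 and 43.4 in capture 2, and 273 and 12.2 in capture 3. The difference was 5.17 ± 0.72 (SE; limma, adjusted p = 0.0691). It passed the threshold when logs were averaged over cells (4.45; limma, adjusted p = 0.00163). It also passed when any 1 capture was left out (4.31 to 5.64), which leaves 2 captures. Such fits called 21 to 23 genes, against 1 with all 3 captures, so a pass in them is unstable. Over all alternatives the adjusted p of Acta2 ranged from 4.48e-08, in a fit of 2 captures, to 0.851. Actb had 0.79 ± 0.11 (adjusted p = 0.0691) and was higher in 3 of 3 captures, Myl9 had 2.95 ± 0.69 and Flna 0.33 ± 0.56 (adjusted p = 0.871 and 0.918). Ccl7 was lower with Tagln in 3 of 3 captures, at -0.85 ± 0.35.

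Whether the difference by Tagln itself changed between PWD12 and the late days was tested in 1 fit of all 7 captures. None of 13405 genes passed (0%; 745 at an unadjusted p under 0.05, 5.56%, of which 1.46% of all genes were higher and 4.1% lower at the late days), and the lowest adjusted p was 0.299, for Emc8. The late minus PWD12 value was -3.29 for Acta2 (limma, adjusted p = 0.854), 0.98 for Myl9 (0.897), -0.26 for Actb (0.854) and 2.08 for Ccl7 (0.854), and none of these passed. Without PWD15 capture 2 the value for Acta2 was -1.04.

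Among cells with Tagln alone, Acta2 was detected less often at the late days. It was above 0 in 43.75%, 0%, 50% and 42.1% of cells with Tagln in the 4 late captures and in 83.3%, 83.3% and 71.4% at PWD12. The ranges did not overlap. The means differed by -45.4 percentage points (33.96% ± 22.9, n = 4, against 79.4% ± 6.87, n = 3, SD; two-sided exact permutation test, p = 0.0571), and 0.0571 is the smallest p these numbers of captures allow. For Myl9 the late shares of 62.5%, 83.3%, 100% and 68.4% overlapped with 88.9%, 100% and 85.7% at PWD12 (exact permutation test, p = 0.286). These 2 comparisons were chosen after the values were seen, and adjusted over both their p-values were 0.114 and 0.286. Median fragments per cell with Tagln were 990029 and 810762 in the PWD15 captures and 2199380 and 2112720 in the PWD21 captures. At PWD12 they ranged from 1202330 to 2036100. The part of depth in these shares was not tested.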

How the data were processed

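Single tdTomato-high wound cells were sequenced from 7 C1 captures. The authors aligned reads to mm10 with Bowtie 1.0.0 and GENCODE release 13, quantified them with RSEM and excluded wells with more than 1 cell by microscopy, and the deposited values are FPKM per gene and cell. Filters and normalization of the study beyond FPKM were not applied here. Symbols and positions came from GENCODE release 21 (50376 of 50600 genes matched), and 8 older symbols of the lists were matched through RefSeq synonyms.

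Members, gene lists and tests were chosen with earlier results of these data known. The plan named a test for counts, and since the files hold FPKM, limma 3.58.1 (R 4.3.3) was used with a variance trend. FPKM of a class were averaged in each capture with at least 3 cells of both classes, a pseudocount of 1 was added, and genes with an average of at least 1 FPKM were tested, without the genes of the rule. A class mean weighs cells equally, so 1 cell can set it. Both class means come from the same capture, which is the block. Their deviations from the class means correlated at 0.0714, 0.0559, 0.0627 and 0.137 in the 4 late captures, against at most 0.003725 between captures.

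Named genes were every tested contractile gene, up to 4 members of other lists with the smallest p, and the 10 genes in each direction with the smallest p among those with 1 sign in all captures. Other genes were named for the cell type check, and 1 further marker list is not reported here. Fragments per cell were estimated from FPKM steps over 9426 single-transcript genes, assuming 300-base fragments. They ranged from 85775 to 7877240 in late matrix cells, and 1 late matrix cell had no estimate. The descriptions of the third PWD12 capture name another file than its title, and the title was followed. Alternatives were pseudocounts of 0.1 and 10, logs averaged over cells, rescaling without mitochondrial genes, Tagln limits of 10 and 500 FPKM, minimums of 4000 genes or 500000 fragments (the last chosen after seeing the data), no block, no filter, no trend and leaving out each capture.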

Additional observations from a re-analysis of the deposited data

Results flagged for a closer look

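In 8 of 62 named genes, the difference between cells with and without Tagln in 1 of the 4 late captures stood apart from the other 3 by Dixon's gap criterion, which chance meets in about 1 of 20 groups. On the log2(mean FPKM + 1) scale, PWD15 capture 1 stood apart for Cnn2 (2.07, against -0.38 to 0.01 in the others), for Amotl2 (1.26, against 4.31 to 4.45) and for Csnk1g2 (2.56, against 4.13 to 4.40). PWD21 capture 1 stood apart for Mylk (2.46, against -0.42 to 0.04), Thbs1 (5.04, against 0.84 to 1.33) and Itgb5 (2.82, against 0.41 to 0.71). PWD15 capture 2 stood apart for Mmp16 (-5.24, against -1.28 to -0.50) and Lrrk1 (-5.39, against -3.19 to -2.79). For Cnn2 and Mylk the other captures lay near 0, so the mean difference of these genes came from 1 capture.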

How the results depend on the processing

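In the late captures, 0 genes were called under every alternative, the fit without the block included, and 51 of 62 named genes kept their direction in every alternative. Part of this count was fixed by the choice of genes. Those picked for the same sign in all late captures could not turn when a capture was left out. Members of lists other than the contractile one were picked by smallest p. Leaving out the capture pairing as a block gave 0 called genes in the late captures and 0 at PWD12, where the paired fit called 1. The PWD12 count was also 0 with a pseudocount of 0.1 or 10, with rescaled cells, with Tagln at 10 FPKM or more, with 4000 genes or 500000 fragments per cell, without a filter and without the variance trend. It was 2 with Tagln at 500 FPKM or more, 11 with logs averaged over cells and 21 to 23 with 1 capture left out, which leaves 2 captures. The contractile median of the late captures was 0.92 with logs averaged over cells.

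With Tagln at 500 FPKM or more, which leaves 3 late captures, Acta2 turned to -1.09, Csrp1 to -0.11, Cnn3 to -0.0292, Itgb5 to -0.31, Cilp to -1.30, Myh10 to 0.90 and the difference in genes above 0 per cell to -94.67. Averaging logs turned Myh10 to 0.14, Myh9 to 0.36 and Ptn to 0.36. With 4000 genes per cell Myh9 became 0.21, Cnn3 -0.0804 and Cald1 -0.22, and with 500000 fragments Myh9 became 0.28 and Cald1 -0.0699. Cald1 was -0.0513 with rescaled cells and -0.0087 with Tagln at 10 FPKM or more. With 1 capture left out, values ranged from -0.15 to 0.67 for Cnn2, -0.23 to 0.73 for Mylk, -0.19 to 1.05 for Csrp1, -1.06 to 0.76 for Myh10, -0.31 to 0.0217 for Myh9, -0.20 to 0.59 for Cnn3, -0.10 to 0.0589 for Cald1, 0.50 to 4.13 for Acta2 and 2.81 to 4.57 for Myl9. The cause of these turns was not tested.

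Limits of these data are that a class mean in a capture can rest on 5 to 7 cells, that a gene listed at 0 in a cell is not shown to be absent from it, and that animals were pooled.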
